A study of Mus musculus with 4 samples.

Results

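E2F1 occupancy was examined at the promoters of genes that encode ubiquitin enzymes and proteasome subunits in mouse embryonic stem cells (ESCs). The list held the protein-coding genes whose symbol begins with Ube2, Cul, Fbxl, Fbxo, Fbxw, Usp, Psma, Psmb, Psmc or Psmd followed by a number or code, 212 genes in all. A peak belonged to the list when it overlapped the window from 1000 bp upstream to 500 bp downstream of any annotated transcript start of such a gene (GENCODE M1, mm9). By this rule 84 of the 4523 E2F1 peaks were members, and they lay at 82 of the 212 genes. Another 3905 peaks overlapped the same window of other protein-coding genes and served as the comparison. The symbols also took in a few genes that are no enzyme or subunit of the family, such as Usp6nl, which encodes a GTPase-activating protein, and Psmc3ip, a recombination factor.

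The 4 samples were E2F1 chromatin immunoprecipitations followed by sequencing (ChIP-seq), 2 from serum ESCs and 2 from 2i ESCs. Both groups were embryonic stem cells that had been kept for more than 20 days in their medium, which is serum or 2i. 2i is a defined medium with inhibitors of MEK and GSK3 that holds ESCs in the naive ground state. No genetic change is given for either group, and the ESC line used for the ChIP is not given in the sources used here. No input or control-antibody sample was analysed here, and promoter occupancy gives no check of the labelled cell type. In bulk chromatin, a change in the number of cells with bound E2F1 and a change in binding per cell cannot be told apart.

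Ubiquitin is activated by an E1 enzyme, passed to an E2 conjugating enzyme of the Ube2 family and attached to a substrate with the help of an E3 ligase. Cullins are the scaffolds of the cullin-RING ligases, and in the SCF ligases built on Cul1 an F-box protein (Fbxl, Fbxo or Fbxw) picks the substrate. Usp proteins remove ubiquitin again, and the 26S proteasome, built from a 20S core (Psma and Psmb) and a 19S cap (Psmc and Psmd), degrades the marked proteins. Cyclins, CDK inhibitors and other regulators of G1 and S phase are known substrates, and E2F1 is the transcription factor released from RB at the passage from G1 to S phase.

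The E2F consensus was read in 4 spellings, TTTCCCGC, TTTGGCGC, TTTGCCGC and TTTCGCGC, on both strands, in the 401 bases around each peak centre. It was present at 5 of the 84 member peaks (5.95%) and at 4.97% of the other promoter peaks. Stretches from 4 of these peaks are shown because they held a full match. Every stretch is given 5′ to 3′ on the strand of the gene, read from the mm9 reference, with matches to the consensus in capitals. Stretches that overlap an annotated UTR or a non-coding exon are cut to 30 bases.

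Usp1, chr4:98590512-98590541, plus strand: ggctcgcgccTTTCGCGCctctgcaacgtg

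Usp3, chr9:66440349-66440427, minus strand: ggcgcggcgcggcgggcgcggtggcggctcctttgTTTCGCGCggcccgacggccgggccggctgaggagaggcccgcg

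Ube2e3, chr2:78709436-78709465, plus strand: ggcggcttctTTTCCCGCccccccggtgcc

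Fbxw7, chr3:84618648-84618726, plus strand: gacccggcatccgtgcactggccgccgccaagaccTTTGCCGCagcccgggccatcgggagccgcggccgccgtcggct

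The 7-letter core, each of the 4 spellings above without its first T, so that every full match also counts, was found at 26 member peaks (31.0%) and at 29.6% of the other promoter peaks. It stood at 11 of 25 Usp peaks, 6 of 14 Fbxo peaks, 4 of 26 Ube2 peaks and 0 of 5 cullin peaks, and these family differences were not tested. A match is a description of the letters only, and no match says no more than that these letters are absent from the window. The next stretches are shown because they lie at the centres of the 4 peaks called between serum and 2i below and of the Ube2d3 peak, which had the highest signal per length. The Psmc2 stretch is shown for its core match, which lies toward the downstream edge of that peak and not at its centre.

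Usp49, chr17:47809587-47809616, plus strand: ccgcgaggtcaagcggcggctgctggagga

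Usp16, chr16:87455425-87455504, plus strand: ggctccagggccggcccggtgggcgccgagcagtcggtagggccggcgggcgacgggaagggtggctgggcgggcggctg

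Psma7, chr2:179777097-179777126, minus strand: agtgtgcgcttttgagcggcggcggcccga

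Fbxw11, chr11:32542805-32542834, plus strand: ctccaccgccgccgccgccaccgcctcctc

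Psmc2, chr5:21291051-21291080, plus strand: cccacggcctcGCGCCAAtgcgcgcggccg

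Ube2d3, chr3:135101967-135102046, plus strand: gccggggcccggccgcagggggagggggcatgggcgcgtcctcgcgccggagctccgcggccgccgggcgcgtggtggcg

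None of the 4 called peaks and not the Ube2d3 peak held the core within their 401 bases. The stretches were rich in G and C, as was the list as a whole. The median GC content around the centre was 76.3% at member peaks and 75.6% at other promoter peaks, and the observed to expected CpG ratio was 0.974 and 0.972.

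The E2 and cullin families carried E2F1 at most of their promoters, whereas the proteasome genes carried almost none. A promoter peak was present at 26 of 36 Ube2 genes (72.2%), 5 of 8 cullin genes (62.5%), 23 of 52 Usp genes (44.2%), 26 of 76 F-box genes (34.2%) and 2 of 40 proteasome genes (5.0%). Over the whole list the share was 38.7%, beside 18.8% of all other protein-coding genes (4145 of 22026). These shares describe one merged peak set. Because a peak had to be found in both replicates of a condition to enter it, a gene without a peak may still be bound below the detection of the peak caller.

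**Figure D1:**
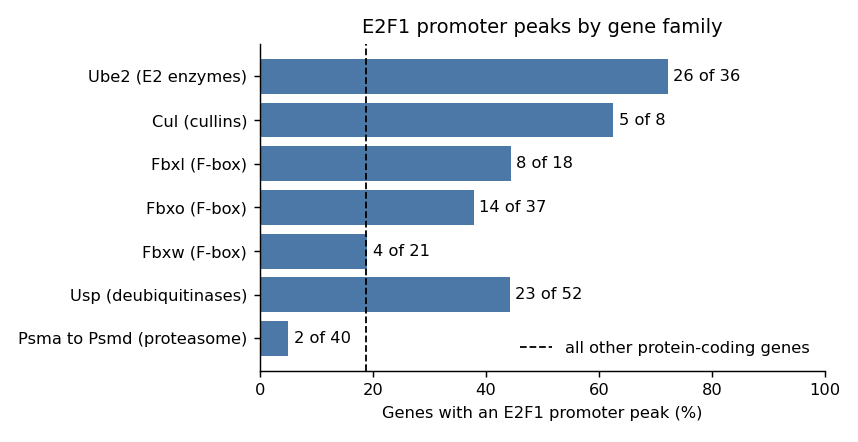
Share of the genes of each family with an E2F1 promoter peak, in percent, with the number of genes beside each bar; the dashed line marks all other protein-coding genes (18.8%). The Ube2 bar is the longest at 72.2% and the proteasome bar the shortest at 5.0%.

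Among the E2 enzymes, peaks lay at Ube2d1, Ube2d2 and Ube2d3, at Ube2e1, Ube2e2 and Ube2e3, and at the Ube2v1, Ube2v2 and Ube2n genes, whose products build lysine-63 chains. Ube2m and Ube2f, the E2 enzymes for NEDD8, also had a peak. The 10 Ube2 genes without one included Ube2c, which starts chains for the anaphase-promoting complex (APC/C), and Ube2t of the Fanconi anaemia pathway. Ube2s, which extends the chains that Ube2c starts, had a peak.

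Of the cullins, Cul1, Cul2, Cul3, Cul4a and Cul5 had a peak and Cul4b, Cul7 and Cul9 had none. The F-box families differed in share, with 8 of 18 Fbxl genes (44.4%), 14 of 37 Fbxo genes (37.8%) and 4 of 21 Fbxw genes (19.0%). Fbxw7, the receptor for cyclin E and Myc, had a peak, whereas Fbxo5, which encodes the APC/C inhibitor EMI1, and Fbxl12 had none. Of the deubiquitinase genes chosen for a role in the cell cycle, Usp1, Usp7 and Usp28 had a peak and Usp37 had none.

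The 2 proteasome genes with a peak were Psma7, a subunit of the 20S core, and Psmc2, an ATPase of the 19S cap. No peak was found at any of the 11 Psmb genes or the 14 Psmd genes. Both proteasome peaks also overlapped the start window of a neighbour that runs in the opposite direction. The centre of the Psma7 peak lay 11 bp upstream of a Psma7 start and 103 bp upstream of Ss18l1. The centre of the Psmc2 peak lay 189 bp upstream of Psmc2 and 60 bp downstream of a start of Dnajc2. The 7-letter core was present in the 300-base promoters (250 bases before to 50 after the start) of 15.0% of the proteasome genes, 16.7% of the Ube2 genes and 11.5% of all protein-coding genes. It was present at 22.0% of list genes with a peak and 12.3% of those without, beside 19.8% and 9.51% over all protein-coding genes.

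Altogether 11 member peaks also overlapped the window of another protein-coding gene, so that they cannot be given to the list gene alone. The peak assigned to Fbxo36 was the clearest such case, with its centre 820 bp upstream of Fbxo36 and 283 bp downstream of a start of Trip12, itself a ubiquitin ligase gene. Usp34 and Usp49 had 2 peaks each, 740 bp and 42781 bp apart. Member peaks sat where promoter peaks usually sat, with the median centre 50 bp downstream of the nearest list start (54 bp for other promoter peaks). Of the 84 centres, 68 (81.0%) lay within 250 bp of the start, beside 84.4% of the other promoter peaks. By the annotation of the list gene, 38 centres were in a UTR or non-coding exon, 16 in a coding exon, 13 in an intron and 17 upstream of the gene.

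Signal is given as the deposited normalized count, the reads over a peak after scaling between the samples. The list was slightly above the other promoter peaks in level, and the median over peaks of the mean signal was 72.2 normalized counts against 65.1. Per kilobase of peak the medians were 142.0 and 127.9, and the median peak was 502.5 bp long against 486 bp. The strongest member per length was Ube2d3 at 422.1 normalized counts per kb, and high values were also found at Fbxo30 (379.3), Fbxl14 (369.1) and the upstream Usp34 peak (356.3). Ube2d3 encodes an E2 that works with many RING ligases. The weakest per length was Fbxl16 at 50.25.

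The samples differed in depth. Reads were estimated from the deposited normalized values, since no raw counts were used here. If the step between the values is the worth of 1 read, about 248878 reads in peaks follow for serum replicate 1, 450420 for serum replicate 2, 710519 for 2i replicate 1 and 395738 for 2i replicate 2. The median member peak held 37, 78, 137 and 68 reads in these samples, and the weakest held 4, 10, 22 and 15. By these estimates serum replicate 1 was the shallowest sample, and the read numbers given beside peaks below carry the same assumption, on which no test rests.

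E2F1 occupancy differed by less than 1.5-fold between serum and 2i ESCs at 71 of the 84 members, and the few peaks called all had less signal in serum. A peak was called when the log2 fold change, serum minus 2i on log2(normalized count + 1), passed 1 upward or downward and its p in limma, fitted over all 4523 peaks and not adjusted, was under 0.05. Of the 84 member peaks 4 (4.76%) were called, at Usp49, Usp16, Psma7 and Fbxw11, all higher in 2i. Of the other promoter peaks 9.48% were called, 5.51% higher in 2i and 3.97% higher in serum, and of all 4523 peaks 10.3%. Of the 4 called members, 3 averaged under 50 normalized counts. The merged set took peaks found in both replicates of either condition. A weak peak may thus have entered through the condition where it was higher. How this bears on the direction of the calls was not tested. After Benjamini-Hochberg adjustment over all peaks 0 members were called, beside 1.46% of all peaks. In the same limma fit 7 of 84 members and 671 of 3905 other promoter peaks had an unadjusted p under 0.05, and the lowest adjusted p of a member was 0.135.

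Usp49 encodes a histone deubiquitinase. Its called peak (chr17:47809349-47809854) lay in a coding exon, 68 bp upstream of an annotated downstream start. The normalized counts were 6.97 and 33.36 in serum and 59.90 and 51.11 in 2i. Both serum values were below both 2i values, but serum replicate 1 was far below serum replicate 2 and rested on an estimated 4 reads. The log2 fold change was −1.77 (SE 0.607, limma adjusted p = 0.166). The other Usp49 peak (chr17:47766599-47767041), which is shared with Med20, had 41.82 and 56.24 in serum and 40.87 and 55.29 in 2i, with a log2 fold change of 0.03. At that peak the conditions overlapped.

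Usp16 encodes a deubiquitinase of histone H2A. Its peak (chr16:87455345-87455583, in an intron) had normalized counts of 6.97 and 9.53 in serum and 21.27 and 20.86 in 2i. The replicates were close to each other, though the peak was weak, with 4 to 38 reads per sample. The log2 fold change was −1.27 (SE 0.540, limma adjusted p = 0.250). With cyclic loess normalization it was −0.48 and the peak was not called.

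Fbxw11 encodes a beta-TrCP F-box protein, an SCF receptor for phosphorylated substrates. Its peak (chr11:32542564-32543074, in a coding exon 35 bp from the start) had 33.10 and 39.08 in serum and 75.58 and 77.19 in 2i. It was the deepest of the called peaks, with 19 to 135 reads per sample, and the conditions were well apart. The log2 fold change was −1.07 (SE 0.329, limma adjusted p = 0.135).

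The proteasome peaks were both weak and both lower in serum. They averaged 27.8 (Psma7) and 28.9 (Psmc2) normalized counts, and the limit given above for weak peaks applies to both. Psma7 (chr2:179776942-179777280) had 10.45 and 23.83 in serum and 41.43 and 35.47 in 2i, a log2 fold change of −1.22 (SE 0.497, limma adjusted p = 0.233). Psmc2 (chr5:21290736-21291089) had 17.42 and 20.02 in serum and 49.83 and 28.17 in 2i, a log2 fold change of −0.97 (SE 0.458, limma adjusted p = 0.293), and was not called. In both peaks the serum values lay below the 2i values, and the neighbour's start in the window means that neither belongs to the proteasome gene alone.

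The calls depended on single samples. Without serum replicate 1, 0 of 84 members were called while 9.17% of other promoter peaks were, and the log2 fold changes became −0.71 at Usp49, −1.07 at Usp16, −0.66 at Psma7 and −0.95 at Fbxw11. In that limma fit the first 3 missed the p threshold and Fbxw11 missed the fold threshold. Without serum replicate 2, 5 were called (5.95%, beside 14.0% of other promoter peaks), the same 4 and Fbxo36, which was higher in serum, and the log2 fold changes were −2.82 at Usp49 (limma adjusted p = 0.0468), −1.47 at Usp16, −1.78 at Psma7 and −1.18 at Fbxw11. Without 2i replicate 1, Fbxw11 (−1.08) and Fbxo36 were called (2.38%, beside 7.4%), and Usp49 (−1.66), Usp16 (−1.25) and Psma7 (−1.11) missed the p threshold. Without 2i replicate 2, Fbxw11 (−1.05), Psmc2 (−1.37) and Fbxl19 were called (3.57%, beside 8.63%), and Usp49 (−1.88), Usp16 (−1.28) and Psma7 (−1.33) missed it.

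**Figure D2:**
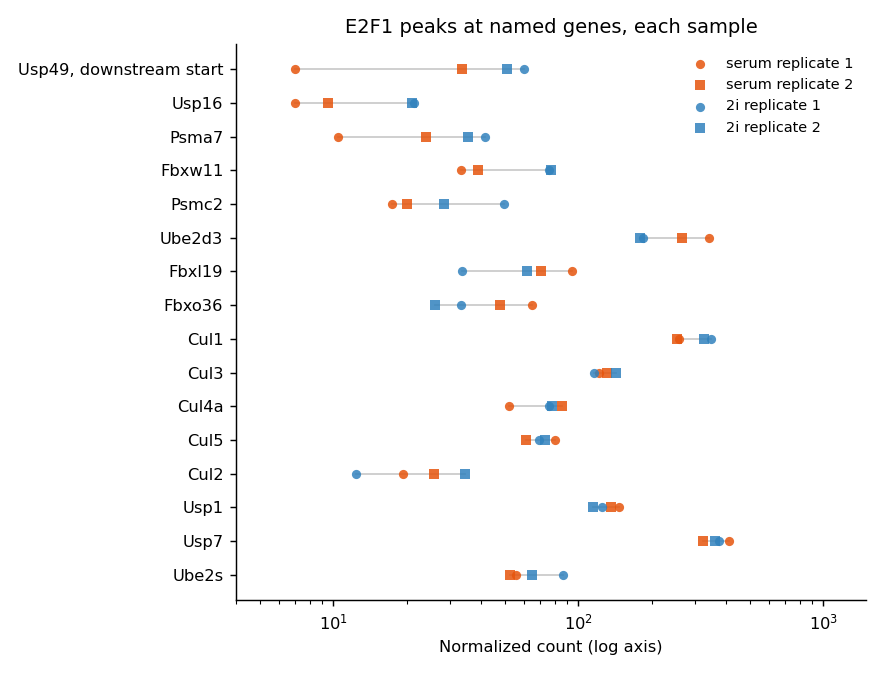
Normalized count (log axis) of E2F1 peaks at named genes in each sample, serum in orange and 2i in blue, with circles for replicate 1 and squares for replicate 2; the grey line spans the 4 values. At Usp49, Usp16, Psma7 and Fbxw11 both serum values lie below both 2i values, whereas at Cul2, Cul3, Cul4a, Cul5 and Usp7 the conditions overlap.

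None of the members was called with more signal in serum. The 3 members with an unadjusted limma p under 0.05 and a log2 fold change within 1 were all higher in serum. Ube2d3, the strongest peak per length (chr3:135101719-135102293), had 341.5 and 265.0 in serum and 184.2 and 178.4 in 2i, a log2 fold change of 0.73 (SE 0.251, limma adjusted p = 0.167). Without serum replicate 1 it was 0.55 and missed the p threshold. Fbxo36, whose peak centre lay 283 bp downstream of a start of Trip12, had 64.46 and 47.66 in serum and 33.03 and 26.08 in 2i, a log2 fold change of 0.90 (limma adjusted p = 0.248). Fbxl19, a CpG-binding F-box protein, had 94.08 and 70.54 in serum and 33.59 and 61.55 in 2i, a log2 fold change of 0.83 (limma adjusted p = 0.266). In these 3 peaks both serum values were above both 2i values.

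The cullin peaks did not pass the test in the main values. Cul1, the SCF scaffold, was the strongest of them at 347.3 normalized counts per kb, with 257.9 and 251.6 in serum and 347.7 and 326.5 in 2i. Its values did not overlap, and the log2 fold change was −0.40 (SE 0.243, limma adjusted p = 0.413). Cul3, the scaffold for BTB proteins, had 122.0 and 130.6 in serum and 115.3 and 141.9 in 2i (log2 fold change −0.02). Cul4a, which works with DDB1 and whose peak is shared with Pcid2, had 52.27 and 85.79 in serum and 76.14 and 78.24 in 2i (−0.20). Cul2 and Cul5, the scaffolds that bind elongins, also overlapped between conditions. Cul5 had 80.15 and 61.01 in serum and 68.86 and 73.02 in 2i (−0.02), and Cul2, the weakest of the cullin peaks, had 19.17 and 25.74 in serum and 12.32 and 34.42 in 2i (0.10).

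Of the genes selected for a role in the cell cycle by the naming rule, Ube2s, Ube2r2, Fbxw7, Usp1, Usp7 and Usp28 had a peak, and none of these 6 was called. Ube2s had 55.75 and 52.43 in serum and 86.78 and 64.68 in 2i, with no overlap and a log2 fold change of −0.46 (SE 0.315, limma adjusted p = 0.468). Ube2r2, a Cdc34-type E2 of the SCF ligases, had 149.8 and 145.8 in serum and 135.5 and 165.9 in 2i (−0.02). At Ube2r2 the conditions overlapped. Fbxw7 had 22.65 and 20.02 in serum and 20.72 and 20.86 in 2i (0.03), a weak peak with near-equal values in the 4 samples.

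Usp1, which deubiquitinates PCNA and FANCD2, had 146.4 and 136.3 in serum and 124.9 and 114.8 in 2i (0.24, limma adjusted p = 0.672). Usp7, which acts on MDM2 and p53, had one of the higher signals, with 411.2 and 323.1 in serum and 375.1 and 362.0 in 2i (−0.02). Usp28, which acts on Myc, had 43.56 and 50.52 in serum and 29.11 and 74.06 in 2i (0.01). The 2i replicates of Usp28 were further apart than the conditions.

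The Fbxo30, Fbxl14 and upstream Usp34 peaks, also strong per length, did not pass the test either. Fbxo30 had 299.7 and 238.3 in serum and 209.4 and 235.8 in 2i (0.27). Both serum values of Fbxo30 lay above both 2i values (limma adjusted p = 0.634). Fbxl14 had 177.7 and 357.5 in serum and 316.9 and 320.3 in 2i (−0.34), and the upstream Usp34 peak had 200.4 and 143.0 in serum and 211.1 and 171.1 in 2i (−0.17). In these 2 the serum replicates were further apart than the 2i replicates.

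**Figure D3:**
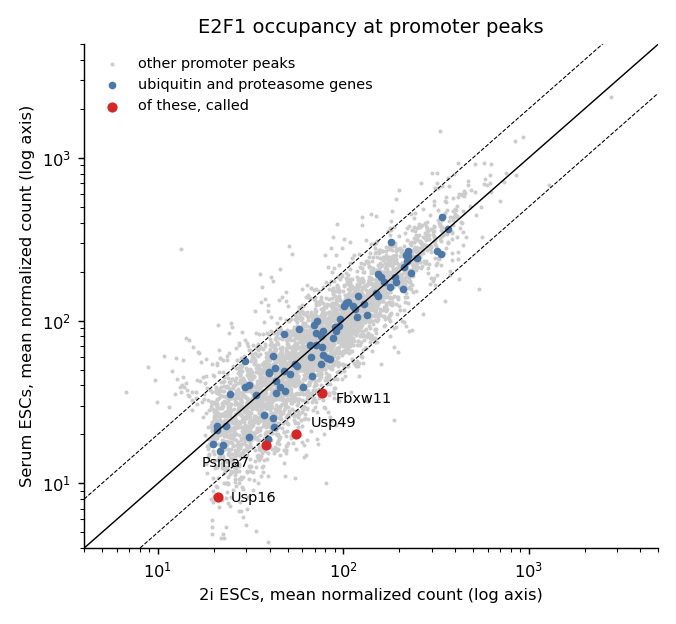
Mean normalized count in serum ESCs (vertical, log axis) against 2i ESCs (horizontal, log axis) at the 84 member peaks (blue, called ones red) and 3905 other promoter peaks (grey); the solid line marks equal values and the dashed lines a 2-fold difference. The 4 called members and Psmc2, which was not called, lie below the lower dashed line, and no member lies above the upper one.

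Over the list, the median log2 fold change was −0.02, with the middle 50% of values from −0.32 to 0.22 and the range from −1.77 to 0.90. The other promoter peaks had a median of −0.05, with the middle 50% from −0.41 to 0.31 and a range from −3.02 to 4.21. The log2 fold change was positive at 39 members and negative at 45. Of the members 84.5% were within 1.5-fold, against 70.1% of the other promoter peaks, and 4.76% against 10.8% passed 2-fold. These shares use the fitted difference on log2(normalized count + 1), by which Psmc2 stays within 2-fold, whereas the ratio of its mean counts passes it. The difference between the shares was not tested, because the list was chosen with earlier results of these data known.

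Serum and 2i values did not overlap at 40 members (47.6%), 18 higher in serum and 22 higher in 2i, beside 49% of the other promoter peaks. The absolute log2 difference between the serum and 2i means had a median of 0.249 over the members and of 0.357 over the other promoter peaks. Between single replicates it was 0.28 in serum and 0.239 in 2i over the members, and 0.342 and 0.321 over the other promoter peaks. Means of 2 samples vary less than single samples, so the values between conditions and between replicates are not on one scale. With 2 samples per condition the smallest p that an exact two-sided permutation test of a single peak can give is 0.333, so no such test was used.

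Calls were concentrated at weak peaks in the list and elsewhere. When all promoter peaks were divided into 4 equal groups by mean normalized count, the called members were 3 of 18 in the weakest group (16.7%), 1 of 19 in the next (5.26%), 0 of 19 in the third and 0 of 28 in the strongest. The other promoter peaks had 15.7%, 10.1%, 5.62% and 6.4% called in the same groups. The strongest group held more members than any of the others, among them Ube2d3, Usp7 and Cul1.

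By family, the Ube2 peaks had a median log2 fold change of 0.11 (17 positive and 9 negative, 0 called), and the Usp peaks −0.12 (9 positive and 16 negative, 2 called). The medians were −0.02 for the 5 cullin peaks, −0.10 for 8 Fbxl, −0.05 for 14 Fbxo, 0.01 for 4 Fbxw and −1.10 for the 2 proteasome peaks. Differences between families were not tested. Beyond those named above, the log2 fold changes of the Ube2 peaks lay between −0.53 (Ube2z) and 0.51 (Ube2f), and those of the remaining Fbxo peaks between −0.89 (Fbxo21) and 0.62 (Fbxo42). The remaining Usp peaks ranged from −0.63 (Usp13) to 0.55 (Usp47).

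**Figure D4:**
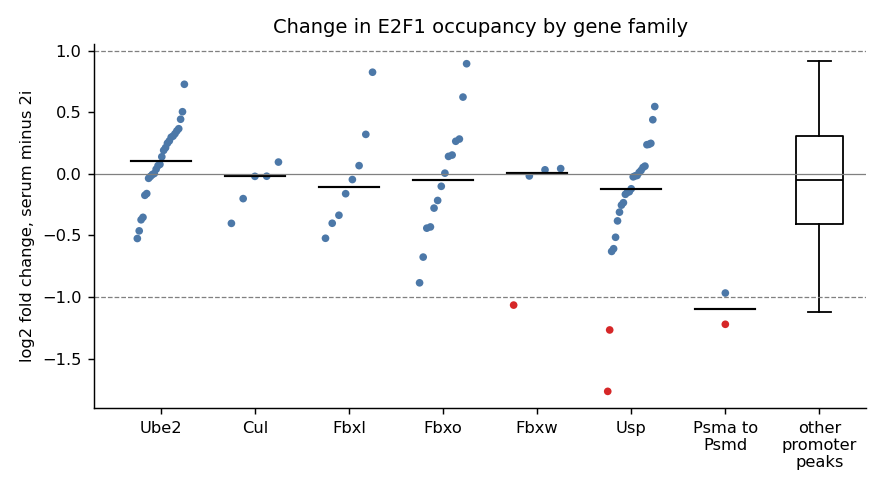
Log2 fold change, serum minus 2i, of every member peak by family (points, called ones red, black bar at the family median) and of the other promoter peaks (box from the first to the third quartile with the median, whiskers at the 5th and 95th percentiles); dashed lines mark a 2-fold difference. Ube2 points centre at 0.11 and Usp points at −0.12, and both proteasome points lie near −1.

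Genes that act with these families were described from a second list of 113 genes, of which 108 are annotated. A promoter peak was present at 37 of them, with 38 peaks, a median log2 fold change of 0.06, 3 called with more signal in serum and 2 with more in 2i. These 5 of 38 calls stand beside 9.48% called among all promoter peaks outside the main list, which include them, so the share is near the background. Peaks lay at 5 of 10 genes for ubiquitin and ubiquitin-like proteins, 2 of 8 E1 enzymes, 10 of 31 cullin-RING partners, 4 of 17 APC/C genes, 3 of 14 proteasome activators and assembly factors and 13 of 28 other deubiquitinases. Skp2, the F-box receptor of p27, had no peak.

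Tceb2, which encodes elongin B of the Cul2 and Cul5 ligases, had 139.4 and 175.4 in serum and 50.95 and 82.41 in 2i (1.26, SE 0.305, limma adjusted p = 0.0764). Otud5, a deubiquitinase, had 40.07 and 37.18 in serum and 15.12 and 21.91 in 2i (1.04, limma adjusted p = 0.243). In both genes both serum values were above both 2i values. Rnf7, the RING subunit of Cul5 ligases, had 8.71 and 19.06 in serum and 31.91 and 38.60 in 2i (−1.37, limma adjusted p = 0.198). Anapc13, an APC/C subunit, had 24.39 and 32.41 in serum and 86.78 and 51.11 in 2i (−1.22, limma adjusted p = 0.150). In these 2 both serum values were below both 2i values, and none of these 4 genes passed after adjustment.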

How the data were processed

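E2F1 ChIP-seq of 2 serum and 2 2i samples was analysed; the submitters describe the replicates as biological. Per the study's methods, reads were aligned to mm9 with BWA, duplicates and blacklisted regions were removed, and peaks were called per sample with MACS2. With bedtools, peaks were intersected between replicates, merged between conditions and counted. The deposited values are this count after normalization by the authors, a signal that need not be whole. The authors named DESeq2 for differential peaks. Tool versions are not given in the sources used here.

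Log2(normalized count + 1) was fitted with limma 3.58.1 (R 4.3.3; empirical Bayes with a trend) over all 4523 peaks, serum minus 2i, with Benjamini-Hochberg adjustment over all peaks. The script was tested on simulated data. Peak coordinates are as deposited. Reads were estimated from the step between values (at least 99.8% whole within 0.01); they describe depth and enter no test. Genes named were the called peaks, the 5 highest per kb, and every proteasome, cullin and selected cell-cycle gene with a peak; Fbxl19, Fbxo36 and the family extremes were chosen after their values were seen. The members and lists were chosen with earlier results of these data known. The 7-letter core was added after seeing the data. A few genes and one sequence that these rules select are not reported here by name, though they stay in the counts.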

Additional observations from a re-analysis of the deposited data

How the results depend on the processing

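The 4 calls became 1 with a pseudocount of 8 (Usp49; Fbxw11 at −0.94, Psma7 at −0.94 and Usp16 at −0.84 missed only the fold threshold), 1 of 55 tested when peaks averaging under 50 normalized counts were left out (Fbxw11, since 3 called peaks are weaker), and 2 with cyclic loess normalization (Usp49 and Fbxw11; Psma7 was at −0.97 and Usp16 fell from −1.27 to −0.48). In these first 3 settings 6.48%, 6.33% and 7.71% of the other promoter peaks were called, beside 9.48% in the main values, and 10.1% after rescaling to the same total. The calls ranged from 0 to 5 when 1 sample was left out, with the lone sample of a condition assumed to vary like the others. Rescaling gave 5 calls (adding Psmc2), peak centres in the window 4, a window from 500 bp upstream to 100 bp downstream 4 of 78, and leaving out shared peaks 3 of 73. For the window settings and the shared peaks, the share of other promoter peaks called is not given here. Adjusted calls ranged from 0 to 1 when 1 sample was left out. The median log2 fold change was −0.106 after rescaling to the same total, where other promoter peaks had −0.139, and −0.076 to −0.020 with 1 sample left out. The list lay below the other promoter peaks, against the order in the main values, without serum replicate 2 (−0.076 and −0.029), without 2i replicate 1 (−0.062 and −0.039) and without peaks averaging under 50 (−0.013 and 0.031). The genes with a peak numbered 77 in the narrower window and 82 otherwise.

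Replicate numbers are shared between conditions, but same-numbered samples did not deviate together (correlation 0.048). With a replicate block the same 4 were called (4.76%), beside 10.2% of the other promoter peaks. After adjustment 1 was called (Usp49), and the share of the other promoter peaks for that count is not given here.

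Direction turned at Usp28 with a pseudocount of 8 (−0.007) and after rescaling (−0.077), and at Fbxw7 after rescaling (−0.053); these were within the spread. With 1 sample left out, the log2 fold change spanned 0 at Cul2 (−0.609 to 0.802), Cul3 (−0.168 to 0.129), Cul4a (−0.554 to 0.151), Cul5 (−0.214 to 0.174), Fbxl14 (−0.838 to 0.166), Fbxw7 (−0.052 to 0.118), Ube2r2 (−0.165 to 0.125), Usp28 (−0.648 to 0.670), upstream Usp34 (−0.408 to 0.076) and Usp7 (−0.189 to 0.158). The cause was not tested. Count tests by edgeR and DESeq2 were planned only if reads could be recovered; since the reads are estimates from normalized values, they were not run.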
